A study of Solanum lycopersicum with 12 samples.

Results

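The tomato array measures TPP3, a defensin homolog, SSTLE1, a germacrene C synthase, LOC544158, and a transcript that the annotation of the array leaves without a gene (here the unnamed probe set), each with 1 probe set. They are 4 of 10038 tomato probe sets. TPP3, LOC544158 and the unnamed probe set were selected on their change of at least 2-fold between plants treated with T34 and control plants, so that their values in that contrast are a description and carry no test. SSTLE1 entered by its annotation, with its values on these arrays already known, and 1 probe set carries that symbol. It was grouped with the others as responsive to T34. Its change with T34 was, however, only 1.57-fold, and its highest signals were found with amdS6.

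RNA was taken from shoots (aerial parts) of tomato plants 3 weeks of age (*Solanum lycopersicum* "Marmande"; the labels also call the tissue leaves), which were grown in autoclaved soil in a greenhouse. Control plants were grown from seeds without fungus, and the other groups from seeds coated with spores of 1 strain of *Trichoderma harzianum*, a root-colonizing fungus used in biological control. T34 is the wild-type strain. amdS6 and amdS122 are transformants of T34 that express the acetamidase gene *amdS* of *Aspergillus nidulans* under the constitutive *gpdA* promoter, with 1 and 2 copies of the cassette, and each is a single isolate. Each of the 4 groups had 3 arrays, and each array carried RNA from 5 pooled plants, so that replicates differ as pools of plants do. All signals are log2 values after RMA, a method that corrects background, equalizes the distributions of the arrays and summarizes the probes of a set, and all differences are log2 fold changes unless a fold is named.

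Plant defensins are small, secreted peptides rich in cysteine, and many of them slow the growth of fungi. TPP3 was first described as a transcript abundant in the tomato pistil. Germacrene C synthase closes farnesyl diphosphate, the common precursor of sesquiterpenes, into the volatile germacrene C. In tomato leaves such terpenes are made largely in the glandular trichomes, hairs of the leaf surface that store compounds against insects and microbes. No function is given for LOC544158 or the unnamed probe set in the annotation used here.

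Leaf transcripts were strong on these arrays. The 3 probe sets of CAB proteins, which bind chlorophyll in the light-harvesting complexes, had group means between 14.02 and 14.26. As a measure of background, the 17 control probe sets for artificial tag sequences had signals between 3.56 and 5.23. Of 9 probe sets of flower transcripts 5 stayed within the range of the tags in every group, as did 2 of 4 probe sets of root transcripts. The other 4 of the flower list were AG1, TDR6, TDR4 and TGAS118. For actin, ef1a and gapdh, the mean of 3' minus 5' signals, a measure of RNA integrity, was 3.12 to 3.22 on control arrays, 2.99 to 3.08 with T34, 2.82 to 2.96 with amdS6 and 2.62 to 2.84 with amdS122. It thus moved with the groups, and the control arrays did not overlap those of either transformant. A fit with it as covariate can therefore hardly separate it from the group. Its part in the results was not tested, but where it ends a call below, the value with it as a covariate is given. In pooled tissue, fewer cells that express a gene and less RNA per cell cannot be told apart.

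**Figure D1:**
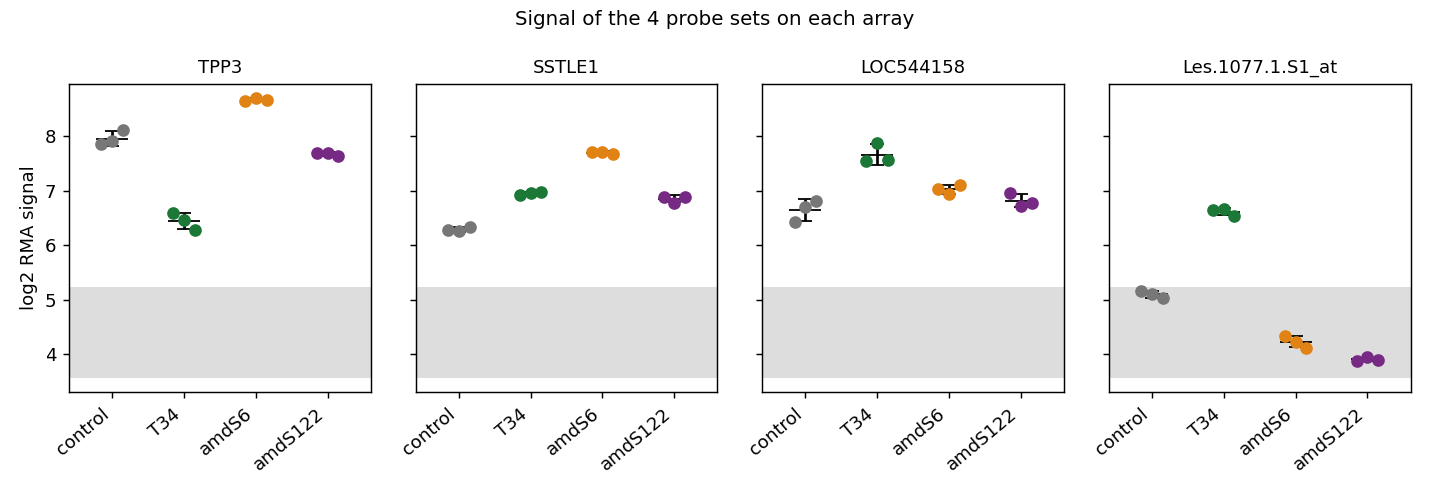
Signal of the 4 probe sets on each of the 12 arrays (points, 3 per group; horizontal line, group mean; error bars, SD), on the log2 scale. The grey band spans the signals of the 17 tag control probe sets, from 3.56 to 5.23. TPP3 was lowest with T34 and SSTLE1 highest with amdS6, whereas the unnamed probe set (last panel, titled with its array identifier) was highest with T34 and lay within the band in the other groups.

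TPP3 was the only one of the 4 probe sets that was lower with T34 than in control plants. Its signals were 7.85, 7.90 and 8.10 in control plants, and 6.58, 6.47 and 6.28 in plants treated with T34. The T34 arrays were thus well below the control arrays, with a gap of 1.27 between the nearest ones, and the group means differed 2.84-fold. With the transformants the picture was different. Signals with amdS6 were 8.63, 8.70 and 8.66, higher than on any other array. With amdS122 they were 7.70, 7.69 and 7.63, just below the control arrays.

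The rise of TPP3 with amdS6 amounted to 0.71 over control, or 1.64-fold (95% limits 0.54 and 0.88, 3 arrays in each group, limma adjusted p = 1.99e-05 over all tomato probe sets), and it passed 2-fold (1.07) only after scaling on the hybridisation spikes. With amdS122 TPP3 was 1.21-fold lower than control (-0.28 on the log2 scale, 95% limits -0.45 and -0.11, limma adjusted p = 0.0112). This small fall no longer passed after scaling on the hybridisation spikes (adjusted p = 0.249) or with the 3' minus 5' values added as covariate (adjusted p = 0.502), both chosen after seeing the data. With the covariate the estimate was still -0.28, and the covariate did not overlap between control and amdS122 arrays. The comparisons with control share the control arrays with the contrast by which TPP3 was chosen. The comparison of the transformants with each other takes its means from none of those arrays, but the spread was estimated over all 12. There TPP3 was 1.99-fold lower with amdS122 than with amdS6 (-0.99 on the log2 scale, 95% limits -1.16 and -0.82, limma adjusted p = 2.18e-06), just short of the 2-fold limit. It was past that limit, at up to -1.01, without amdS6 replicate 1, amdS122 replicate 1 or amdS122 replicate 2. In order of signal, TPP3 ran from amdS6 over control and amdS122 to T34, with no overlap between neighbouring groups. The mean with amdS6 was 4.66-fold, and with amdS122 2.34-fold, that with T34.

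Since TPP3 is known from the pistil, the flower transcripts above the tags were set beside it. TDR4, a MADS-box factor, rose by 0.71 with amdS6 and by 0.42 with amdS122 (limma adjusted p = 7.14e-06 and 0.000327). TDR6, another MADS-box factor, fell by 0.22 with amdS6, and its fall with amdS122 was -0.30. AG1, a MADS-box factor of stamens and carpels, rose by 0.73 with T34, with a control mean of 4.54 in the range of the tags. The mean of the 9 flower transcripts was 5.26 to 5.31 on control arrays, 5.39 to 5.40 with T34, 5.30 to 5.34 with amdS6 and 5.33 to 5.43 with amdS122. Of the 9, 1 was higher and 1 lower with T34, 2 were higher and 4 lower with amdS6, and 2 were higher and 3 lower with amdS122. Of all 10038 probe sets, 574 were higher and 419 lower with T34, 2911 and 2101 with amdS6, and 3014 and 2210 with amdS122. The counts and the mean of the 9 include the 5 within the range of the tags. Among those were RIN, AGL11 and Stig1, counted as lower with amdS6, where a difference is no measure of the transcript. Their part in the values of TPP3 was not tested.

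The array holds 4 other annotated probe sets for small cysteine-rich peptides of defense or lipid transfer. None of them was lower than control at an adjusted p under 0.1 with any strain. With T34 2 of the 4 were higher, where 5.72% of all tomato probe sets were. With amdS6 4 of 4 were higher, against 29.0% of all probe sets, and with amdS122 2 of 4, against 3014 of all 10038. In the order T34, amdS6, amdS122 their median log2 fold changes were 0.32, 0.50 and 0.34, while those of all probe sets were -0.0030, 0.015 and 0.025.

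The closest in kind to TPP3 was TGAS118, which also belongs to the defensin-like proteins. TGAS118 ranged from 7.47 to 7.72 in control plants, from 7.67 to 8.22 with T34, from 7.85 to 8.14 with amdS6 and from 7.29 to 8.04 with amdS122. Its T34 arrays overlapped the control arrays (log2 fold change of 0.38, adjusted p = 0.248 from limma), so that it showed no fall like that of TPP3. LE16, a lipid transfer protein, which carries lipids in the cell wall, was called with both transformants: its signal rose 2.21-fold with amdS6 (limma adjusted p = 4.11e-07) and 2.13-fold with amdS122 (limma adjusted p = 4.78e-07). TSW12, a lipid transfer protein as well, rose 1.46-fold and 1.44-fold with the same strains. ltpg1 rose by 0.10 with amdS6 (limma adjusted p = 0.0404), and its differences from control were 0.026 with T34 and -0.0036 with amdS122.

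SSTLE1 was higher than control with every strain, and the size of the rise differed. In control plants its signals were 6.28, 6.26 and 6.34. They were 6.92, 6.95 and 6.97 with T34, 7.70, 7.71 and 7.66 with amdS6, and 6.89, 6.77 and 6.89 with amdS122. The amdS6 arrays thus stood above all others, and the control arrays below all others. T34 and amdS122 lay close together between them, with 0.028 between their nearest arrays and a log2 difference of means of -0.098 (amdS122 minus T34).

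With amdS6 SSTLE1 was 2.64-fold higher than control (1.40 on the log2 scale, SE 0.044, limma adjusted p = 3.13e-10), one of the 0.339% of probe sets called higher in this comparison. With amdS122 it was 1.47-fold higher (0.56 on the log2 scale, 95% limits 0.46 and 0.65, limma adjusted p = 1.07e-06). Both comparisons use the control arrays of the T34 contrast. The values of SSTLE1 on them were known when it was included, so that low control signals would favour both rises. The T34 arrays were 1.57-fold above control, which placed SSTLE1 at 38 of 10038 by size of change. Between the transformants, SSTLE1 was 1.79-fold lower with amdS122 than with amdS6 (-0.84 on the log2 scale, 95% limits -0.94 and -0.75, limma adjusted p = 8.51e-08). After scaling on the hybridisation spikes this difference was -1.17, past the 2-fold limit. The identifier of the probe set ends in _s_at, a mark of probes shared by more than 1 transcript, and tomato has near-identical sesquiterpene synthases, so the signal may hold transcripts of other members of the family.

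Of 6 other probe sets of terpenoid synthesis, 1 was higher with T34, 2 with amdS6 and 3 with amdS122 at an adjusted p under 0.1, and none of these 6 was lower. The 1 higher with T34 was neryl diphosphate synthase 1, listed only through the study's table of probe sets that changed with T34. Its place in the counts with T34 and amdS6 was thus known in advance and is no support. Of all 10038 probe sets, 574 were higher with T34, 2911 with amdS6 and 3014 with amdS122, so that the counts with the transformants were not far from the share of the whole array. The median log2 fold changes of the 6 were -0.022, 0.085 and 0.064. ISPE and HDS, of the plastid pathway that supplies precursors, were added after the values had been seen. With them, of 8 probe sets, 1 was higher with T34, 3 were higher and 1 lower with amdS6, and 4 were higher with amdS122.

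Neryl diphosphate synthase 1, which makes the precursor of trichome monoterpenes, was the one called with all strains. It is named here from the study's table of probe sets that changed with T34, which also gives its rise with amdS6. That table marks no change with amdS122, where the rise here was 2.06-fold, just past the limit. Its signals were 5.63, 6.00 and 5.67 in control plants, 6.97, 7.23 and 6.97 with T34, 7.37, 7.53 and 7.54 with amdS6, and 6.80, 6.56 and 7.07 with amdS122. As for SSTLE1, the amdS6 arrays were the highest and the control arrays the lowest, while T34 and amdS122 overlapped. Over the 12 arrays the Pearson r between neryl diphosphate synthase 1 and SSTLE1 was 0.915 (Spearman rho of 0.909). This pair was picked after its values were seen, and the 12 points come from 4 groups. MTS1, a monoterpene synthase of the trichomes, had group means between 4.35 and 4.62, within the range of the tags, where a change is hard to measure. The mean of both trichome transcripts was 5.03 to 5.31 on control arrays, 5.61 to 5.86 with T34, 5.87 to 6.17 with amdS6 and 5.47 to 5.70 with amdS122. With MTS1 among the tags, this mean follows neryl diphosphate synthase 1 alone and is no separate measure of trichomes. The part of trichome number in the values of SSTLE1 was not tested.

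Upstream of SSTLE1, FPPS1, the farnesyl diphosphate synthase that makes its substrate, was 1.09-fold higher with amdS6 (adjusted p = 0.0838 from limma), and had differences of 0.0055 with T34 and 0.0082 with amdS122. HMGR, of the cytosolic mevalonate pathway, had differences of -0.043, -0.015 and -0.24 with T34, amdS6 and amdS122, with an adjusted p of 0.119 for the last from limma. DXS and DXR, the first enzymes of the plastid pathway, rose by 0.12 and 0.19 with amdS122. HDS, a late step of the same pathway, rose 1.15-fold with amdS6 and 1.27-fold with amdS122 (limma adjusted p = 0.00272 and 3.59e-05). ISPE had -0.052 with T34 and -0.084 with amdS122, and fell by 0.12 with amdS6 (limma adjusted p = 0.0294).

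**Figure D2:**
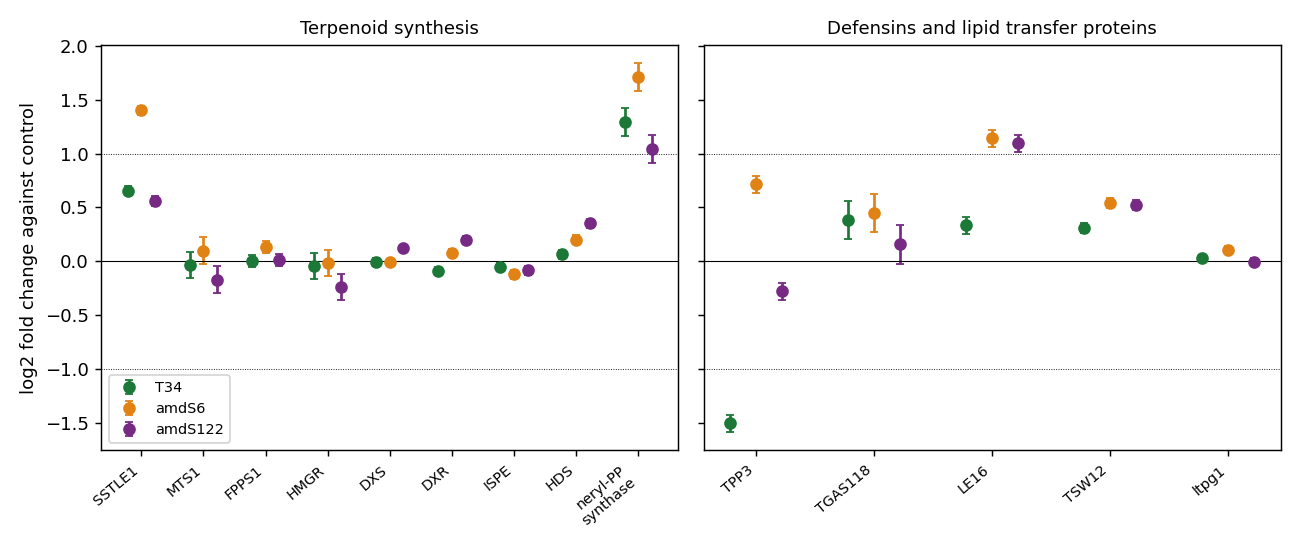
Log2 fold change against control of SSTLE1 and the other probe sets of terpenoid synthesis (left) and of TPP3 and the other small peptides (right), for T34, amdS6 and amdS122 (points; error bars, standard error of the limma fit, 3 arrays per group; dotted lines, 2-fold). SSTLE1 and neryl diphosphate synthase 1 rose most with amdS6, and TPP3 was the only peptide below -1 with T34.

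LOC544158 showed the largest spread between replicates of the 4 probe sets. Its signals were 6.42, 6.71 and 6.81 in control plants and 7.54, 7.88 and 7.56 with T34. The T34 arrays stood apart from the control arrays by 0.73, and the means differed 2.02-fold. With amdS6 the signals were 7.03, 6.94 and 7.09, and with amdS122 they were 6.95, 6.72 and 6.78. The latter overlapped the control arrays.

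This is close to the limit by which LOC544158 was chosen. Just inside the limit with T34 were LOC544158 (2.02-fold) and a pair of probe sets without a symbol (2.01-fold and 2.00-fold), and just outside it was LOC543955 (1.99-fold). The difference of LOC544158 with T34 fell under 2-fold, to 0.90, without control replicate 1 or without T34 replicate 2, and also with array weights, to 0.97. With amdS6 LOC544158 was 1.30-fold higher than control (0.37 on the log2 scale, 95% limits 0.13 and 0.61, limma adjusted p = 0.0168), which did not pass with the 3' minus 5' values added as covariate (0.52, adjusted p = 0.103). The estimate was thus larger with the covariate, which did not overlap between these groups. The comparison of amdS6 with control uses the control arrays by which LOC544158 was chosen, so that a low signal on them favours the rise. Without control replicate 1 the rise was 0.26 (limma adjusted p = 0.0698). With amdS122 the difference was 0.17 (95% limits -0.075 and 0.41, limma adjusted p = 0.247). The difference between amdS122 and amdS6 was -0.21 (95% limits -0.45 and 0.034, limma adjusted p = 0.182). It passed with the compared groups alone (adjusted p = 0.0603), with array weights (0.0894) and after scaling on the spikes (0.00161). The arrays could not place these differences more closely than those limits. In order, LOC544158 ran from T34 over amdS6 and amdS122 to control, and amdS122 overlapped both of its neighbours.

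The unnamed probe set had the largest change of all 10038 probe sets with T34, and TPP3 the second largest. Its signals were 5.16, 5.11 and 5.03 in control plants and 6.64, 6.66 and 6.54 with T34, a rise of 1.51 in the means. With amdS6 they were 4.33, 4.23 and 4.13, and with amdS122 3.88, 3.94 and 3.90. Both transformants were thus below control on every array, and the 4 groups did not overlap in the order T34, control, amdS6, amdS122.

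The signal of the unnamed probe set was low. With T34 it was above all 17 tag controls. The control mean of 5.10 was also above the means of all 17, but close to the highest single signal of a tag on these arrays, 5.07. With amdS6 7 of the 17 tag controls had a higher mean, and with amdS122 15 of 17. A transcript at such signals cannot be told apart from background, so that the fold below control depends on where background lies.

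Measured as deposited, the unnamed probe set was 1.83-fold lower than control with amdS6 (-0.87 on the log2 scale, SE 0.058, limma adjusted p = 3.05e-07) and 2.28-fold lower with amdS122 (-1.19, 95% limits -1.32 and -1.06, limma adjusted p = 1.27e-08). The latter was called, as were 1.70% of all probe sets on the lower side. Between the transformants its deposited means of 4.23 (amdS6) and 3.91 (amdS122) both lay at the level of the tags, where their difference is no measure of the transcript. The differences of the transformants from T34, given further below, are no sizes of a response. The transformants had no level clear of the tags. On the same arrays the 4 root transcripts had a mean signal of 6.11 to 6.23 in control plants, 6.24 to 6.28 with T34, 5.72 to 5.76 with amdS6 and 5.66 to 5.72 with amdS122. Of these, 4 of 4 were lower than control with amdS6 and 3 of 4 with amdS122, against 20.9% and 22.0% of all probe sets. ext1, an extensin of this list, and PT2 lay among the tag controls, with group means of 3.66 to 3.88 and 4.11 to 4.57. Only PT1 and TIP thus had a readable fall, by 0.64 and 0.52 with amdS6 and by 0.70 and 0.89 with amdS122. With T34 PT1 rose by 0.59 (limma adjusted p = 0.00568), and TIP differed by 0.11 (limma adjusted p = 0.503). The part of root material in the values of the unnamed probe set was not tested.

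Set side by side, no pair of the 4 probe sets had the same order of groups. At an adjusted p under 0.1, 4 of 4 differed from control with amdS6 (3 higher and 1 lower), where 49.9% of all probe sets did, and 3 of 4 with amdS122 (1 higher and 2 lower), where 52.0% did. With such shares on the whole array, counts over 4 probe sets leave little to read. Past the 2-fold limit as well were 1 with amdS6 (SSTLE1), against 1.67% of all probe sets, and 1 with amdS122 (the unnamed probe set), against 2.14%. Between the transformants 3 of 4 passed, all lower with amdS122 than with amdS6, where 38.2% of all probe sets passed and 18.7% were lower, and none was past 2-fold, against 0.717%. One of these 3 was the unnamed probe set, with both groups at the level of the tags. Arrays did not overlap for 4 of 4 with amdS6 against control (53.1% of all probe sets), for 3 of 4 with amdS122 (53.8%) and for 3 of 4 between the transformants (46.1%). The contrast of T34 with control, by which 3 of the 4 were chosen, had 0.0897% of all probe sets past both limits and 24.7% without overlap. Only TPP3 was higher with 1 transformant and lower with the other.

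Scaling on the hybridisation spikes, the control transcripts added before hybridisation, moved the median of all probe sets from 0.015 to 0.37 in amdS6 against control and from 0.015 to -0.32 between the transformants. With it 164 probe sets were called higher and 93 lower with amdS6, in place of 34 and 134. The mean of the spikes itself ran from 10.30 to 10.75 on the control arrays alone, and from 10.03 to 10.26 with amdS6. A shift of this size thus lies within the spread of the spikes between control arrays. The scaling was also applied to values that RMA had already equalized. The directions of the 4 probe sets were the same under both scalings.

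**Figure D3:**
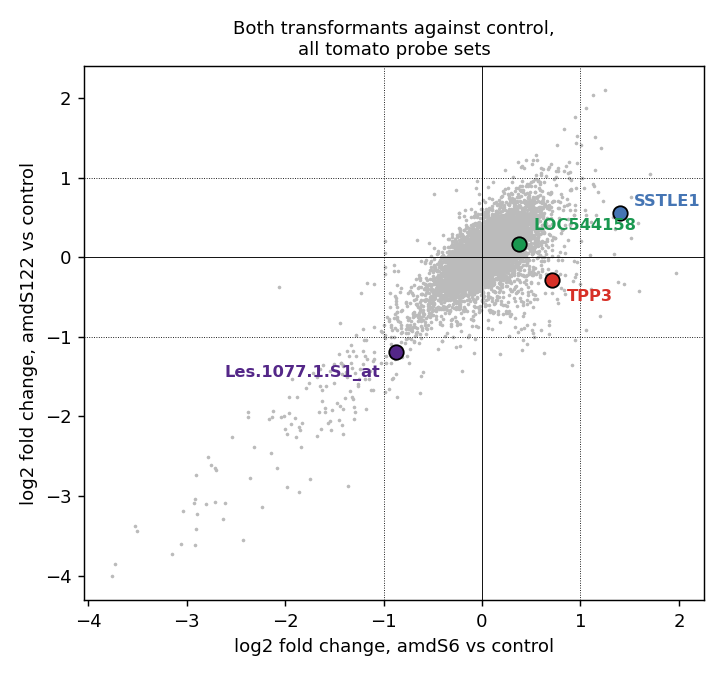
Log2 fold change of every tomato probe set (grey points) with amdS6 (x axis) and with amdS122 (y axis) against control, with the 4 probe sets in colour (dotted lines, 2-fold). Both axes use the same control arrays. SSTLE1 lay at 1.40 and 0.56, LOC544158 at 0.37 and 0.17, TPP3 at 0.71 and -0.28, and the unnamed probe set at -0.87 and -1.19.

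The genes most alike in pattern were sought among the probe sets with a symbol, by Pearson r over the 12 arrays. For the unnamed probe set they were FRO1 (r = 0.970), a ferric-chelate reductase of iron uptake, ME2 (0.962), a malic enzyme, and PT1 (0.956), a phosphate transporter. FRO1 had group means of 9.06 with T34, 8.36 in control plants, 8.13 with amdS6 and 7.93 with amdS122. This is the order of the unnamed probe set, but FRO1 was picked for that likeness. The shared order therefore says nothing on the signals of the unnamed probe set near the tags. PT1 had 8.55, 7.96, 7.32 and 7.26, and it is also 1 of the 4 root transcripts above. In all, 25 probe sets had an r of 0.95 or more with the unnamed probe set.

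For SSTLE1 the nearest were CYP1 (0.982), XET4 (0.981), a xyloglucan endotransglycosylase that remodels the cell wall, and CIP2b (0.970). XET4 had group means of 5.57 in control plants, 6.16 with T34, 6.90 with amdS6 and 6.08 with amdS122. In all, 18 probe sets reached 0.95 with SSTLE1. TPP3 and LOC544158 had few close matches, with 4 and 1 probe sets at 0.95 or more. Nearest to TPP3 were LOC543796 (0.881), SNF1 (0.880), a protein kinase of the sugar and energy response, and LCA1 (0.874), a calcium pump. SNF1 went only from 9.51 with T34 to 9.79 with amdS6, a far narrower range than that of TPP3. Nearest to LOC544158 were cat1 and SPE4 (both 0.883) and TD2 (0.874), a threonine deaminase active against leaf-eating insects, whose Spearman rho with LOC544158 was only 0.406. Between the 4 probe sets themselves r ran from -0.802 (TPP3 and the unnamed probe set) to 0.715 (LOC544158 and the unnamed probe set). The 12 arrays fall into 4 groups, so that these values describe the order of the groups and carry no test.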

How the data were processed

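The deposited table holds log2 signals of Affymetrix Tomato Genome Arrays, which the authors computed by RMA in Expression Console (versions not given in the sources used here), and it was used without further normalization. Because RMA equalizes the arrays, a shift of all transcripts could not be seen. Of 10209 features, 108 control and 63 reporter probe sets were left out of the tests, and 10038 remained. One linear model over the 12 arrays, with a mean for each group, was fitted in limma (version 3.58.1, R version 4.3.3), after the fit had been tested on simulated data. Benjamini-Hochberg adjustment covered every tomato probe set in each comparison. Called means an adjusted p below 0.1 together with a 2-fold difference. Only these limits follow the study, which set its false discovery rate in a multi-class SAM test. An exact permutation test of 3 arrays against 3 cannot go below a two-sided p of 0.1. Precision is limited by the number of arrays (median SD within groups 0.079). Symbols (909 probe sets) are those of the platform annotation, and 885 of them matched RefSeq, used here only for names and gene order. The members and gene lists were chosen with earlier results of these data known. Named are the 4 probe sets, called members of the lists (terpenoid synthesis, small peptides, and markers of leaf, root, flower and trichome) and, for each of the 4, the 3 symbols of highest Pearson r. List members that were not called were named after their values were seen. Alternatives were a replicate block, the compared groups alone, median centring, a further quantile normalization, a filter at the 30th percentile, a variance trend, array weights, a ratio of linear means, an adjusted p below 0.05, no fold limit, an F test and leaving out each array. Scaling on 9 hybridisation spikes and the 3' minus 5' covariate were added after seeing the data. The labels give a coating of 20000000 spores per ml, and the methods a denser one.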

Additional observations from a re-analysis of the deposited data

Results flagged for a closer look

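TPP3 was higher than control with amdS6 and slightly lower with amdS122. The difference between the transformants was tested (log2 fold change of -0.99 for amdS122 against amdS6, limma adjusted p = 2.18e-06). The fall below control with amdS122 was weaker, and no longer passed after scaling on the hybridisation spikes (adjusted p = 0.249) or with the 3' minus 5' values added as covariate (adjusted p = 0.502). With the covariate, which did not overlap between these groups, the estimate was still -0.28. TPP3 also moved oppositely with T34 and amdS6: every T34 array was below and every amdS6 array above the control arrays, a difference of 2.22 that was not tested, since T34 was the basis on which the probe set was chosen. The unnamed probe set was above control on every T34 array and below it on every array of the transformants. As deposited, the differences were -2.38 for amdS6 and -2.71 for amdS122 against T34, again not tested. The signals with the transformants lay among the tag controls, so that these are differences from background and not sizes of a response.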

How the results depend on the processing

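Of 300 values recomputed under the alternatives other than leaving out arrays, none changed direction and 275 stayed within the limits of a like result. The filter at the 30th percentile removed the unnamed probe set, which therefore has no values under that alternative. Without a fold limit 993 probe sets were called with T34, 5012 with amdS6 and 5224 with amdS122 against control, 3831 between the transformants, and 4589 (amdS6) and 4907 (amdS122) against T34. Scaling on the hybridisation spikes, chosen after seeing the data, moved the median of all probe sets with amdS6 from 0.015 to 0.37. The mean of the spikes ran from 10.30 to 10.75 on the control arrays alone, so that the values under this scaling are uncertain. It gave 257 calls in amdS6 against control, in place of 168, and 193 between the transformants, in place of 72. Of the calls 63.8% were higher with amdS6 against control, in place of 20.2%, and 42.4% with amdS6 against T34, in place of 16.2%. TPP3 then had 1.07 with amdS6, -0.25 with amdS122 (adjusted p no longer past the limit), -1.33 between the transformants and 2.49 for amdS6 against T34. SSTLE1 had 0.74 with T34, -1.17 between the transformants, and 1.01 (amdS6) and -0.16 (amdS122) against T34. LOC544158 had -0.54 between the transformants (adjusted p = 0.00161 from limma) and -0.37 for amdS6 against T34. The unnamed probe set had 1.60 with T34 and -2.12 for amdS6 against T34. With the 3' minus 5' values added as covariate TPP3 had -0.28 with amdS122 and LOC544158 0.52 with amdS6, both no longer past the limit, and LOC544158 had -0.67 for amdS122 against T34. The covariate did not overlap between control arrays and those of either transformant, so that this fit can hardly separate it from the group. The difference of LOC544158 between the transformants passed the adjusted p with the compared groups alone (-0.21, adjusted p = 0.0603) and with array weights (-0.23, adjusted p = 0.0894 from limma). Except where shown by construction, the cause was not tested. Leaving out 1 array at a time gave -1.01 to -0.97 for TPP3 between the transformants, past 2-fold without amdS6 replicate 1, amdS122 replicate 1 or amdS122 replicate 2, and moved no other tested value of the 4 probe sets across a limit. The replicate numbers were not taken as pairs in the main fit, and whether they stand for a shared batch was not tested. Deviations from the group means correlated from -0.047 to 0.55 in pairs of the same number, above 0.1 in 10 of 18. In pairs of different numbers they correlated from -0.47 to 0.30. With the replicate block 9, 168 and 216 probe sets were called with T34, amdS6 and amdS122, and no call of the 4 probe sets changed. An F test over the 4 groups, with the 2-fold limit against control, passed 255 probe sets. It uses the T34 and control arrays, so that nothing is read from it for the 4. What limits the unnamed probe set is its signal near that of the tags.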

Other observations

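In the RefSeq gene order SSTLE1 lies 4 genes from TPS12, another terpene synthase of tomato. TPS12 was not analysed here. Of the 6 genes on each side of SSTLE1, LOC778303 and TPI have a probe set with a symbol on the array. LOC778303 differed from control by -0.030 with T34, 0.14 with amdS6 and -0.16 with amdS122 (limma adjusted p = 0.223 and 0.160 for the transformants), and TPI by 0.12, -0.028 and 0.046 (adjusted p = 0.783 and 0.644 for the transformants). Neither passed in the comparisons with the transformants in which SSTLE1 was higher. Among the 6 genes on each side of TPP3 and of LOC544158, none has a probe set with a symbol.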
